A study of Mus musculus with 14 samples.

Results

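The genes described here encode the 2 chaperonins of the mouse heart: Tcp1, Cct2, Cct3, Cct4, Cct5, Cct6a, Cct7 and Cct8, which encode the 8 subunits of the cytosolic chaperonin TRiC (also called CCT), and Hspd1 and Hspe1, which encode the mitochondrial chaperonin and its lid. They were taken by symbol from a deposited table of counts for 47642 annotated genes, and each of the 10 was found once. The study set left ventricles of male mice with a gene trap within Uty on chromosome Y (UtyGT) against left ventricles from isogenic males without the trap (WT), all of them adults 40 days old. Uty lies in the male-specific region of chromosome Y and encodes a paralog of a histone demethylase. The UtyGT chromosome came from a line of 129P2/OlaHsd embryonic stem cells and was backcrossed to C57BL/6J females, and WT males were obtained by backcrossing 129P2/OlaHsd males to C57BL/6J females over as many generations. The trap is therefore a single allele, present in every cell and from the start of development, and not limited to the heart. One QuantSeq 3′ FWD library, in which reads come from the 3′ ends of polyadenylated transcripts, was prepared from each left ventricle, with 7 libraries per genotype. Libraries are numbered as the columns of the deposited table, and these numbers pair no UtyGT mouse with a WT mouse.

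Chaperonins are barrel-shaped complexes that enclose an unfolded protein and release it after ATP has been hydrolysed. TRiC is built from rings of different but related subunits and carries its own built-in lid. It is best known for folding actin and tubulin, which reach it from the co-chaperone prefoldin, and also folds G protein beta subunits and other proteins with WD40 repeats. Hspd1 (Hsp60) forms rings of a single kind of subunit in the mitochondrial matrix, and Hspe1 (Hsp10) closes them, so that imported proteins can fold inside. Hspd1 and Hspe1 lie head to head on chromosome 1 and are known to be transcribed in opposite directions from a shared promoter, on which the heat shock factor Hsf1 acts in mammalian cells. In the heart, loss of mitochondrial Hsp60 is known to disturb mitochondrial protein balance.

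Reads assigned to genes totalled 6357485 to 10268706 per UtyGT library and 6322161 to 9397378 per WT library. Uty, the trapped gene, had 1 to 6 counts per UtyGT library and 47 to 75 per WT library, as the labels require. The test covered 11563 genes with sufficient counts. Levels in this text are read counts scaled by TMM to the total of the library (CPM) and not per transcript length, so they are compared between genotypes and not between genes. Differences are log2 of UtyGT over WT ± SE. A gene is said to be called where its adjusted p in the edgeR quasi-likelihood test, adjusted over all tested genes, was below 0.05. By this rule 4.7% of tested genes were called higher in UtyGT, 3.34% lower and 8.03% in either direction, that is, 543 genes higher and 386 lower. This balance rested on single libraries: 919 genes were called higher and 1329 lower without UtyGT 6, and 796 higher and 834 lower without UtyGT 6 and WT 4. A first principal component held 59.6% of the variance between libraries, and UtyGT 6 and WT 4 stood together at one end of it. Level also depended on the GC content of transcripts in a way that differed between libraries and largely followed genotype. Over 10 percentage points of GC, log2 CPM moved by -0.29 to 0.14 in UtyGT libraries and by -0.08 to 0.32 in WT libraries. This slope was below 0 in every UtyGT library except UtyGT 6 (0.14). It was above 0 in every WT library except WT 6 (-0.02) and WT 7 (-0.08). The first principal component divided the libraries in the same way. Dependence on GC content and genotype can therefore not be fully told apart in these libraries. The median GC content of transcripts was 44.5% for genes called higher, 55.3% for genes called lower and 49.7% for all tested genes.

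All 10 chaperonin genes could be tested. Of these, 2 were called higher in UtyGT ventricles, namely Hspd1 and Tcp1, and 0 were called lower, against 4.7% and 3.34% of all tested genes. The median log2 fold change of the 10 genes was 0.16 and that of the 8 TRiC genes 0.09, against 0.01 over all tested genes. The log2 fold change was above 0 in 9 of the 10 genes, and in 51.1% of all tested genes. An unadjusted p below 0.05 was found for 3 genes, the 2 called ones and Hspe1, and for 2867 of the 11563 tested genes. The genotypes did not overlap for 1 gene, Hspd1, where all 7 UtyGT libraries stood above all 7 WT libraries; this held for 1.46% of all tested genes. Without UtyGT 6 and WT 4, 3 members were called, Cct4 being the third, while the number of all genes called was 1630 in place of 929. Since whole ventricle was sequenced, fewer cells of a type and less RNA per cell cannot be told apart in any of these results.

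**Figure D1:**
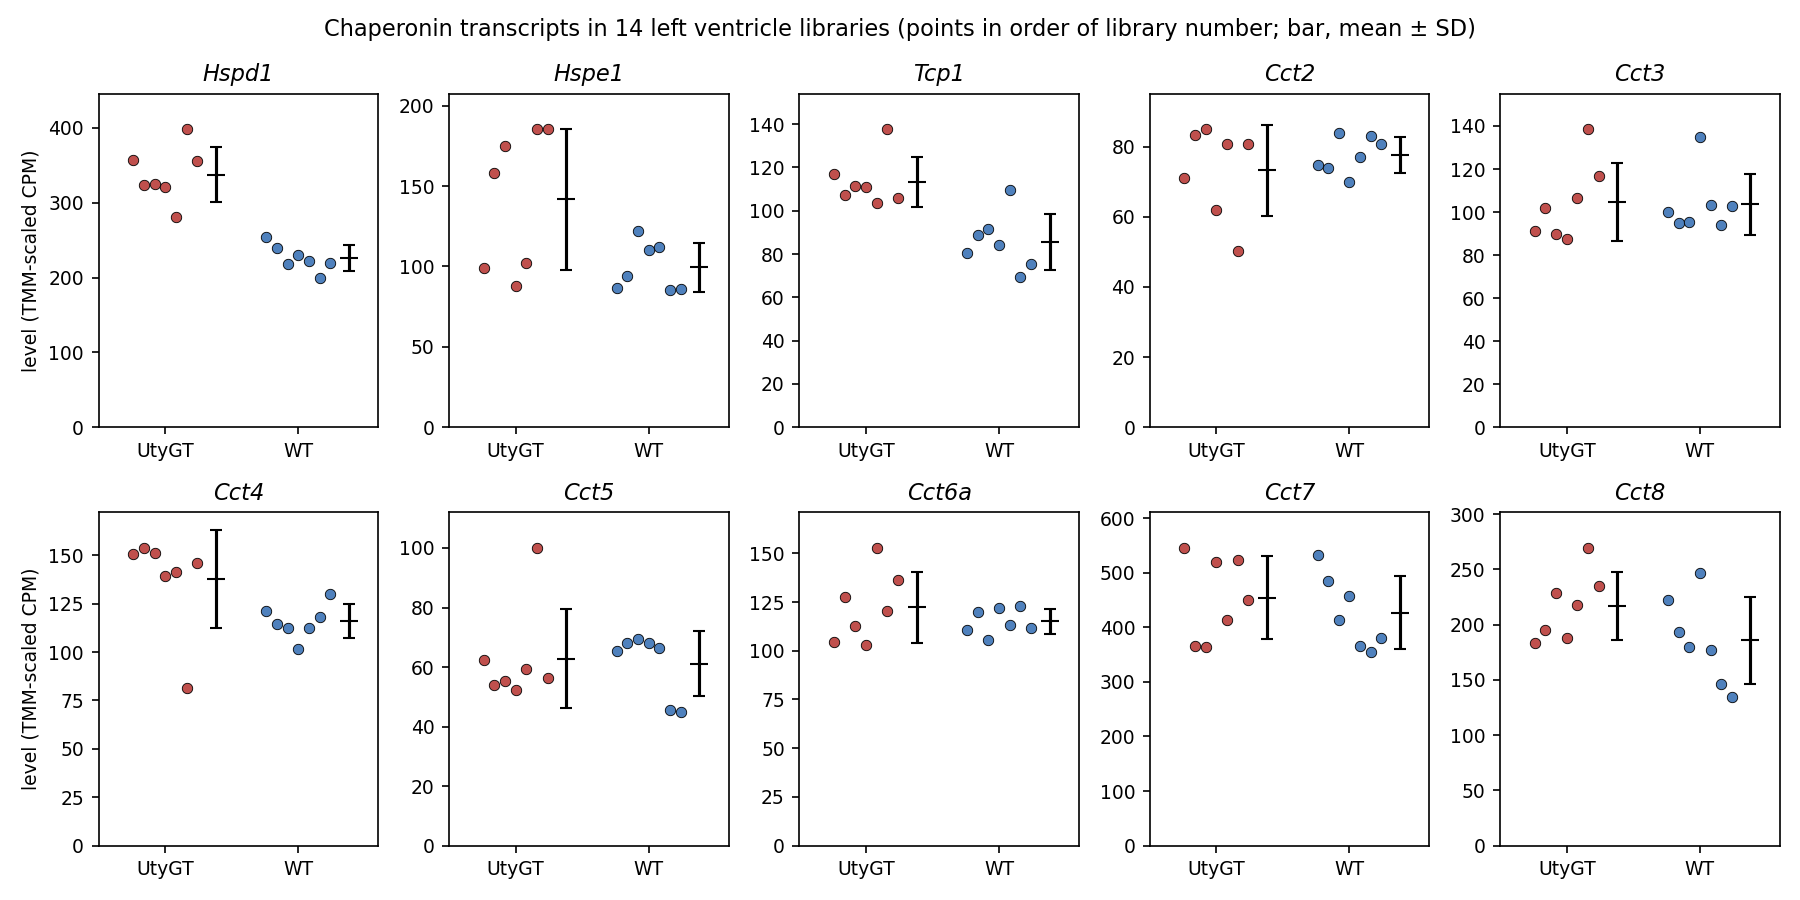
Level of each chaperonin gene (TMM-scaled CPM, axes from 0) in the 7 UtyGT libraries (left, red) and the 7 WT libraries (right, blue), in order of library number, with the mean ± SD beside each group. The UtyGT points of Hspd1 (280.5 to 398 CPM) all lie above its WT points (199 to 254 CPM), whereas the groups overlap in the other 9 panels.

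Hspd1, the subunit of the mitochondrial chaperonin (ENSMUSG00000025980), lies on the minus strand of chromosome 1, from 55077835 to 55088243 (GRCm38). Its level in UtyGT libraries 1 to 7 was 357, 324, 326, 322, 280.5, 398 and 357 CPM, and in WT libraries 1 to 7 it was 254, 239.6, 219, 230.5, 222, 199 and 219 CPM. The lowest UtyGT library, UtyGT 5, was thus above the highest WT library, WT 1. Hspd1 averaged 338 ± 37.1 CPM in UtyGT and 226 ± 17.3 CPM in WT ventricles (SD, n = 7 each), which is 149% of WT. The log2 fold change was 0.58 ± 0.10 (95% interval 0.37 to 0.79, edgeR adjusted p = 0.00361). The counts behind these levels were 2098 to 3785 per UtyGT library and 1528 to 2088 per WT library. Hspd1 was called under all 27 alternative settings tried, with a log2 fold change of 0.48 to 0.63 and adjusted p of 1.00e-07 (DESeq2) to 0.0169 (GC correction). Without UtyGT 6 and WT 4 the log2 fold change was 0.54 (adjusted p = 0.00237).

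Hspe1, the co-chaperonin that forms the lid (ENSMUSG00000073676), lies on the plus strand of the same chromosome, from 55088132 to 55091307. Its level in UtyGT libraries 1 to 7 was 99.0, 158, 175, 87.5, 102, 185 and 185 CPM, and in WT libraries 1 to 7 it was 86.3, 94.2, 122, 110.3, 112, 85.6 and 85.8 CPM. The UtyGT libraries fell on both sides of a gap: 4 of them stood above every WT library, and the other 3 lay among the WT values. Hspe1 averaged 142 ± 43.7 CPM in UtyGT and 99.5 ± 15.1 CPM in WT ventricles, without a call (log2 fold change 0.51 ± 0.18, 95% interval 0.14 to 0.89, edgeR adjusted p = 0.0869). Its point estimate was thus near that of Hspd1, but the spread among UtyGT libraries was wider, with a coefficient of variation of 30.9% for Hspe1 against 11.0% for Hspd1. Of the 27 alternatives, Hspe1 was called in 1, the fit without UtyGT 4 (adjusted p = 0.0492), and its adjusted p ranged up to 0.244.

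The annotated genes Hspd1 and Hspe1 overlapped by 112 bp at their 5′ ends (55088132 to 55088243), away from the 3′ ends where reads fall. The ratio of Hspd1 to Hspe1 CPM was 2.57 ± 0.78 in UtyGT and 2.32 ± 0.40 in WT libraries, with overlapping ranges of 1.86 to 3.67 in UtyGT and 1.79 to 2.94 in WT. Across the 7 UtyGT libraries, log2 levels of the genes had a Pearson r of 0.50 (permutation p = 0.271, adjusted over the 2 genotypes 0.542) and a Spearman rho of 0.57 (permutation p = 0.2, adjusted 0.4). Without UtyGT 5 and UtyGT 6, the libraries farthest from the Hspd1 median, r was 0.07. Leaving out the farthest libraries also narrows the range of Hspd1, so this drop cannot show that the relation rested on them. Across the 7 WT libraries r was -0.05 (permutation p = 0.905, adjusted 0.905) and rho 0.11 (permutation p = 0.84, adjusted 0.84), and r was -0.24 without WT 1 and WT 6. All these p-values are two-sided and come from the 5040 possible pairings. In these 7 libraries per genotype the correlation did not reach p = 0.05. With 1 library left out, rho ranged between 0.31 and 0.94 in UtyGT and between -0.43 and 0.43 in WT, the highest being that without UtyGT 1 (permutation p = 0.0167, not adjusted), for which r was 0.68 (permutation p = 0.126).

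The region around the starts of Hspd1 and Hspe1 is shown because their transcripts start from it in opposite directions. It was searched for the heat shock element, the repeated motif bound by heat shock factors. RefSeq promoter windows (GRCm38.p6, 250 bases before to 50 after a start) were searched on both strands for alternating TTC and GAA units with NN between them, a longer run counted also as each shorter one: at least 2 units (TTCNNGAA or GAANNTTC), 3 units (TTCNNGAANNTTC or GAANNTTCNNGAA) or 4 units (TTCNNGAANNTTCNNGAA or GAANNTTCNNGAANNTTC). A window was found for 9 of the 10 members. The Hspe1 window (chr1:55087898-55088197, plus strand) reads as follows, with the run of 4 units in capitals.
Hspe1 promoter: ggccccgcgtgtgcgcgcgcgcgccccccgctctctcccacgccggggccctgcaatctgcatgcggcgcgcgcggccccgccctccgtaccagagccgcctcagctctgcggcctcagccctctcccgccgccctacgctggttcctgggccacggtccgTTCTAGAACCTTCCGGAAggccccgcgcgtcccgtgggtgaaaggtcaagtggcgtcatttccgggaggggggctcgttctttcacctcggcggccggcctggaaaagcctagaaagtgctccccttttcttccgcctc
The run covered bases -89 to -72 relative to the Hspe1 start. The same 18 bases, read on the other strand, covered bases -144 to -127 relative to a start of Hspd1. That start and the run both lie inside the annotated Hspd1 gene. Another Hspd1 window, at the annotated 5′ end of the gene (chr1:55088194-55088493, minus strand), held 0 runs.
Hspd1 strand, chr1:55088051-55088084 (minus strand): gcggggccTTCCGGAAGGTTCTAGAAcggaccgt
Runs of 4 units were found in 8 of 32851 promoter windows (0.0244%), and runs of at least 3 units in 198 (0.603%). Among the TRiC genes with a window, none held 3 units, Tcp1 included. Runs of 2 units, which 15.1% of all windows held, were found for Cct6a, Cct2 and Cct5, printed here with the units in capitals so that they can be compared with the longer run.
Cct6a, chr5:129787372-129787395 (plus strand): taagacttTTCGAGAAgaccccgc
Cct2, chr10:117063402-117063425 (minus strand): caagtgaaGAAGTTTCtagcagga
Cct5, chr15:31601865-31601888 (minus strand): gcggccgaTTCCAGAAgctactct
None of these 3 TRiC genes was called. A match describes letters in a window and is not a measurement of binding.

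Tcp1, which encodes subunit alpha of TRiC (ENSMUSG00000068039, chromosome 17, 12915701 to 12925067, plus strand), was the TRiC gene that was called. Its level in UtyGT libraries 1 to 7 was 117, 107, 111, 111, 104, 138 and 106 CPM, and in WT libraries 1 to 7 it was 80.6, 88.8, 91.6, 84.0, 109.7, 69.4 and 75.2 CPM. All UtyGT libraries stood above 6 of the WT libraries, and WT 5 lay within the UtyGT range. Tcp1 averaged 113 ± 11.6 CPM in UtyGT and 85.6 ± 13.1 CPM in WT ventricles, which is 132% of WT (log2 fold change 0.40 ± 0.11, 95% interval 0.17 to 0.64, edgeR adjusted p = 0.0351). The adjusted p was close to the threshold. The call was made in 14 of the 27 alternatives, and in 3 of the 14 fits that left out a single library, namely those without WT 5, UtyGT 5 or UtyGT 6; in these 14 fits the adjusted p ranged between 0.0238 and 0.0823. After correction for GC content of the transcript, which was 41.1% for Tcp1, the log2 fold change was 0.23 (adjusted p = 0.359), so that the call was lost, whereas it was kept with GC content of the last 500 nt (0.39, adjusted p = 0.0436). At its 3′ end Tcp1 overlapped Acat3 on the opposite strand, which had 0 counts in all libraries.

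**Figure D2:**
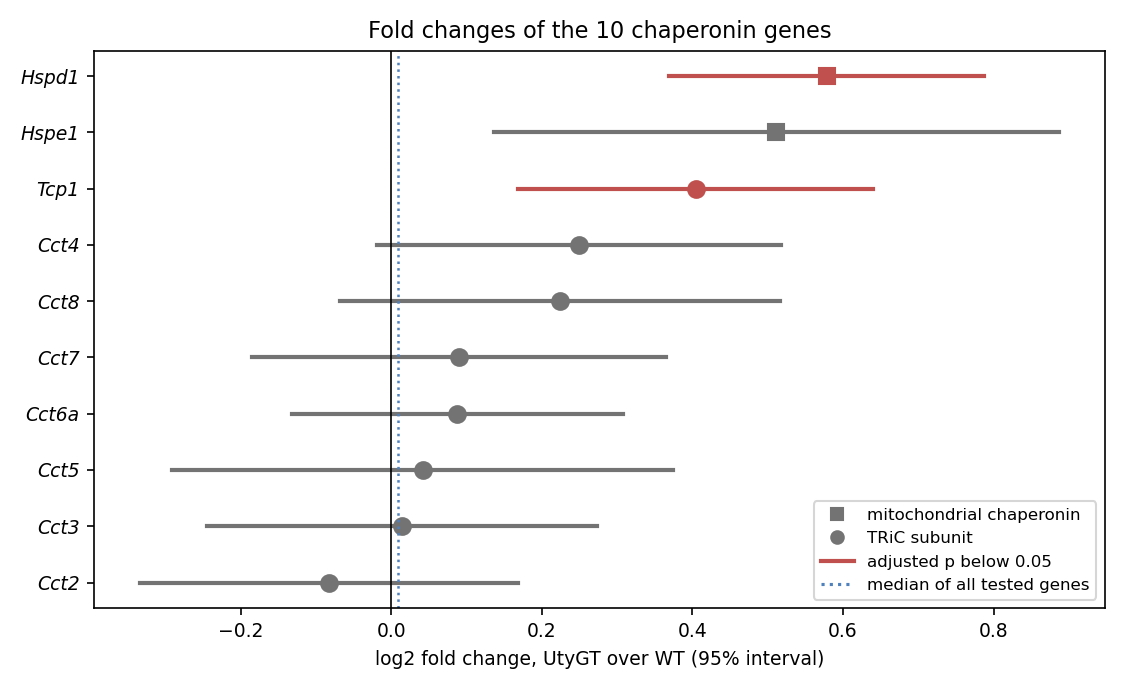
Log2 fold change (UtyGT over WT) of the 10 chaperonin genes with its 95% interval from the edgeR fit; squares are the mitochondrial chaperonin, circles the TRiC subunits, and red marks an adjusted p below 0.05. The intervals of Hspd1, Hspe1 and Tcp1 lie above 0, those of the other 7 TRiC genes include it, and the dotted line is the median of all tested genes (0.01).

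The other 7 TRiC genes were not called, and their log2 fold changes ran from -0.08 (Cct2) to 0.25 (Cct4). Cct4 (subunit delta) had a lowest level of 81.2, a median of 146 and a highest of 154 CPM in UtyGT libraries, against 102, 115 and 130.1 CPM in WT libraries. For Cct4, 6 of the UtyGT libraries thus stood above every WT library, and UtyGT 6 stood below all of them. Cct4 averaged 138 ± 25.5 CPM in UtyGT and 116 ± 8.78 CPM in WT ventricles (log2 fold change 0.25 ± 0.13, 95% interval -0.02 to 0.52, edgeR adjusted p = 0.236). The call turned on that library: without UtyGT 6 the log2 fold change was 0.33 (adjusted p = 0.0178), and without UtyGT 6 and WT 4 it was 0.32 (adjusted p = 0.0251). After correction for GC content it was 0.11 (adjusted p = 0.597).

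Cct8 (subunit theta) had 183 CPM at the lowest, 218 at the median and 269.5 at the highest in UtyGT libraries, against 135, 179.6 and 246 CPM in WT libraries. All 7 UtyGT libraries lay above the WT median, but the ranges overlapped (log2 fold change 0.22 ± 0.14, 95% interval -0.07 to 0.52, edgeR adjusted p = 0.33). Cct8 was called higher with surrogate variables (log2 fold change 0.31, adjusted p = 0.0209) and in no other alternative. Its last 192 bp overlapped the 3′ end of Usp16, on the opposite strand, and the strand setting of the counter is not given in the sources used here, so that reads of the pair may not be told apart.

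For the remaining TRiC genes the difference was smaller than the spread between mice. Cct7 (subunit eta) averaged 454 ± 76.6 CPM in UtyGT and 427 ± 66.8 CPM in WT ventricles (log2 fold change 0.09, 95% interval -0.19 to 0.37). Cct6a (subunit zeta) averaged 122 ± 18.1 CPM in UtyGT and 115 ± 6.54 CPM in WT ventricles (0.09, interval -0.13 to 0.31). Cct3 (subunit gamma) averaged 105 ± 18.3 CPM in UtyGT and 104 ± 14.2 CPM in WT ventricles (0.01, interval -0.24 to 0.27). In each case the genotypes overlapped, and the interval bounds the change without showing that there was none. Cct2 (subunit beta), the gene with a negative estimate, averaged 73.3 ± 13.0 CPM in UtyGT and 77.6 ± 5.16 CPM in WT ventricles (-0.08, interval -0.33 to 0.17).

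Cct5 (subunit epsilon) averaged 62.9 ± 16.8 CPM in UtyGT and 61.1 ± 10.9 CPM in WT ventricles (log2 fold change 0.04, 95% interval -0.29 to 0.37). Its UtyGT libraries ranged between 52.4 and 62.5 CPM except for UtyGT 6, at 100.1 CPM. Of the WT libraries, 5 lay between 65.3 and 69.5 CPM, whereas WT 6 and WT 7 had 45.5 and 44.9 CPM. The sign of its estimate therefore depended on single libraries, and without UtyGT 6 the log2 fold change was -0.13.

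Summed over the 8 subunits, TRiC transcripts amounted to 1285 ± 81.4 CPM in UtyGT and 1171 ± 108 CPM in WT ventricles, which is 109.7% of WT. The sums ranged between 1188 and 1421 CPM in UtyGT and between 1034 and 1307 CPM in WT libraries, so that the genotypes overlapped. Tcp1 made up 8.81 ± 0.61% of the TRiC sum in UtyGT and 7.34 ± 1.21% in WT ventricles, and these ranges overlapped as well. Hspd1 per unit of summed TRiC was 0.263 ± 0.020 in UtyGT and 0.193 ± 0.008 in WT ventricles. The ranges of this ratio, 0.22 to 0.28 in UtyGT and 0.179 to 0.207 in WT, did not overlap, although Hspd1 was already without overlap on its own.

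**Figure D3:**
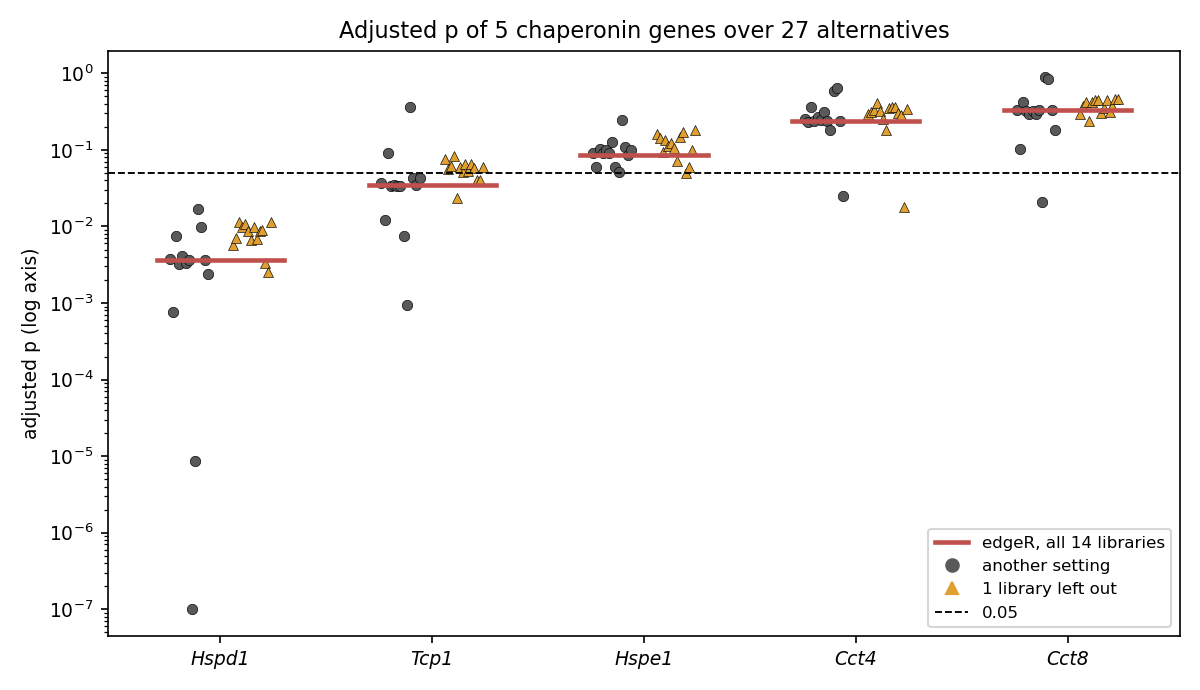
Adjusted p (log axis) of the 5 chaperonin genes that were called in at least 1 fit: the red line is the edgeR fit of all 14 libraries, circles are other settings, triangles are fits with 1 library left out, and the dashed line is 0.05. Every point of Hspd1 lies below the line, the points of Tcp1 lie on both sides of it, and 1 or 2 of the 27 points lie below it for Hspe1, Cct4 and Cct8.

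From mouse to mouse, the subunits of TRiC moved in different directions. As a description, deviations of log2 CPM from the genotype means were correlated over the 14 libraries for each pair of members. The median r over the 28 pairs of TRiC genes was 0.06, and the pairs ran from -0.82 (Cct4 with Cct5) to 0.83 (Cct2 with Cct4). Much of this rested on UtyGT 6 and WT 4. Without them the median was 0.05, r of Cct4 with Cct5 was -0.53 and that of Cct2 with Cct4 was 0.32, and the ends of the range were other pairs, Cct2 with Cct7 (-0.75) and Tcp1 with Cct5 (0.73). The correlation of Cct2 with Cct3 changed sign, with -0.47 over all libraries and 0.43 without these 2, and that of Cct3 with Cct4 was -0.70 over all libraries and 0.09 without them. Tcp1, Cct5 and Cct8 kept a positive r in each of their 3 pairs, 0.37 to 0.78 over all libraries and 0.29 to 0.73 without these 2. Cct7 was also positive with Tcp1 (0.24), Cct5 (0.53) and Cct8 (0.41), and without these 2 libraries with 0.12, 0.45 and 0.30. Over all libraries, members were also set beside the dependence on GC content: deviations of Cct5 had an r of 0.81 with the slope of level on GC content of their library, Cct8 0.63, Cct3 0.60, Tcp1 0.57 and Cct7 0.54, whereas Cct4 had -0.79 and Cct2 -0.73. The r was 0.31 for Hspd1, 0.08 for Hspe1 and 0.07 for Cct6a. The points of each pair share their library and its depth, and the part of the GC slope in these correlations was not tested.

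**Figure D4:**
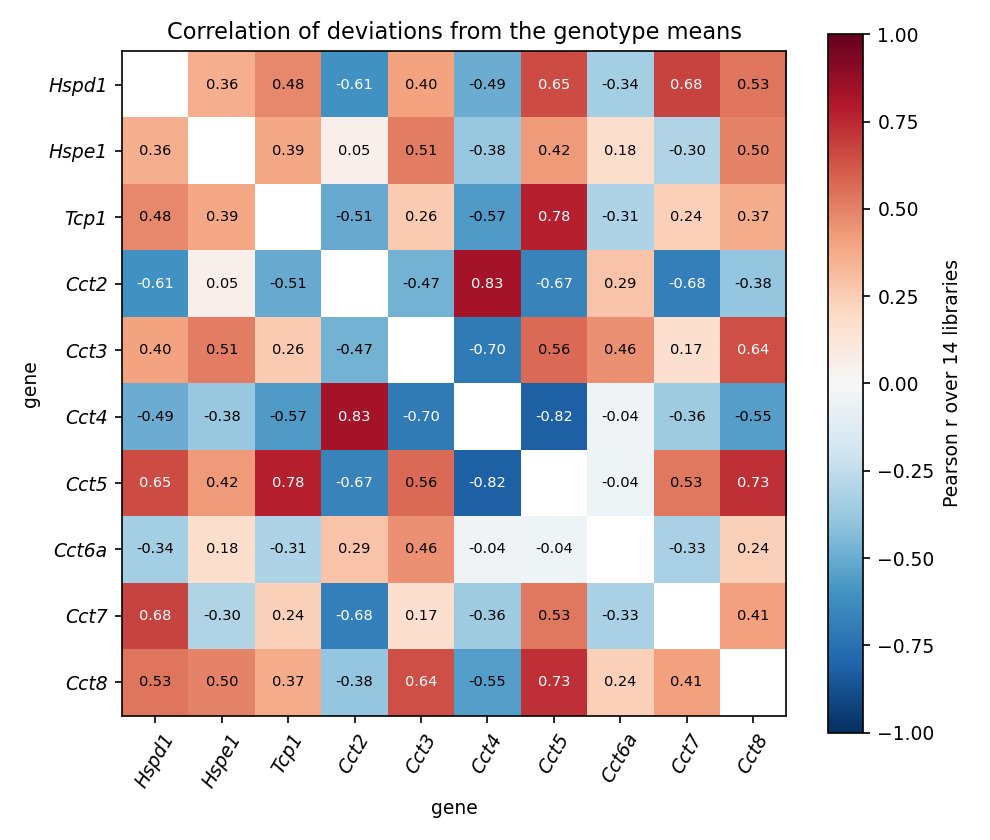
Pearson r between members, over 14 libraries, of deviations of log2 CPM from the genotype means (red positive, blue negative, diagonal left blank). Cct4 is negative with Cct5 (-0.82) and positive with Cct2 (0.83), and r of Hspd1 with Hspe1 is 0.36; without UtyGT 6 and WT 4 these values are -0.53, 0.32 and 0.19.

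Among tested genes outside the members with a mean of at least 20 CPM, those most like Hspd1 by the same measure were Trip11 (r = 0.92), Acin1 (0.91) and Ptp4a2 (0.90), with 0.92, 0.88 and 0.92 over the 12 libraries without UtyGT 6 and WT 4. For Tcp1 they were Alad (0.89), Fhod3 (0.88) and Fech (0.87), Alad and Fech being enzymes of heme synthesis. For Cct5 they were Actr1a (0.98) and the ribosomal protein genes Rpl8 and Rpl26 (0.97 each). For Cct4 they were Cpne3, Rnf114 and Mcee (0.95 each), although for Mcee r was 0.50 without the 2 libraries. No gene was among the nearest 3 of more than 1 member. The 95th percentile of r over the 4920 genes compared was 0.68 for Hspd1, 0.69 for Tcp1, 0.89 for Cct5 and 0.86 for Cct4. With the first principal component, r was -0.50 for Hspd1, -0.58 for Tcp1, -0.89 for Cct5 and 0.84 for Cct4. The part of this component in the likeness of genes was not tested.

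Reads of near-identical copies were looked at because the copies of Hspd1 and Hspe1 are numerous. Of 13 pseudogenes or other copies of members in the annotation, 6 had counts. Over the 7 libraries of each genotype, the 5 copies of Hspd1 had 147 counts in UtyGT and 47 in WT, which together was 0.62% of the counts of Hspd1. Of these, 143 in UtyGT and 45 in WT fell on Hspd1-ps3, a processed pseudogene on chromosome 11 with 99.0% identity to Hspd1 over 1722 nt, which was itself called higher (log2 fold change 1.57, edgeR adjusted p = 0.0326). Counts of Hspd1-ps3 were low, at 9 to 53 per UtyGT library and 1 to 14 per WT library, and these ranges overlapped. The count of 53 was that of UtyGT 6. Reads of Hspd1-ps3 may belong in part to Hspd1. With copies joined to their members the log2 fold change of Hspd1 was 0.58, and the 2 calls were unchanged. Reads without a unique alignment, 42.0% to 45.9% of reads per library, name no gene and were left out. Reads shared by Hspd1 and a copy may be among them, so joining the copies cannot show how far copies affect Hspd1.

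Paralogs of the TRiC genes were barely detected in the ventricle. Cct6b, a testis paralog of Cct6a, had 8 counts over the UtyGT and 6 over the WT libraries, and Cct8l1 had 2 in each genotype. Mkks, which belongs to the chaperonin-like Bardet-Biedl syndrome proteins that help to assemble the BBSome with TRiC, was called higher: 108 CPM at the lowest, 155 at the median and 163 at the highest in UtyGT libraries, against 82.2, 109.1 and 129 CPM in WT libraries (log2 fold change 0.42 ± 0.12, edgeR adjusted p = 0.0415). The groups overlapped, and Mkks was called in 13 of 27 alternatives. Its call was lost under both GC corrections, with a log2 fold change of 0.27 in each (adjusted p = 0.153, and 0.16 with the last 500 nt). Bbs10, of the same group, had a log2 fold change of -0.04 at 2.52 CPM in UtyGT and 2.60 CPM in WT, and was not called.

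The co-chaperones that work with TRiC held no calls in the fit of all libraries. Of the 9 genes of prefoldin and related complexes, 0 were called in either direction, with a median log2 fold change of -0.10 and values between -0.23 and 0.28. Of the phosducin-like regulators, 2 were tested and 0 called. Of the 5 tubulin folding cofactors, which take tubulin over from TRiC, 0 were called. The cofactor with the smallest adjusted p was Tbca, which binds beta-tubulin, at 111 ± 11.0 CPM in UtyGT and 136 ± 5.17 CPM in WT ventricles (log2 fold change -0.29 ± 0.09, edgeR adjusted p = 0.0601). Although not called, all 7 UtyGT libraries of Tbca (97.96 to 126 CPM) lay below all 7 WT libraries (128 to 143 CPM), as was the case for 0.675% of tested genes. Tbca was called lower in 7 of 27 alternatives, among them both GC corrections (-0.45, adjusted p = 0.0208, and -0.41 with the last 500 nt, adjusted p = 0.0222), DESeq2 (-0.30, adjusted p = 0.00508), surrogate variables (-0.29, adjusted p = 0.0113) and the fit without UtyGT 6 (-0.30, adjusted p = 0.0351).

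Among the clients of TRiC, 2 of 15 tested actin and tubulin genes were called, both tubulins and both higher in UtyGT. Of all tested genes, 4.7% were called higher and 3.34% lower. Tubb2a, a beta-tubulin, averaged 88.3 ± 13.3 CPM in UtyGT and 55.1 ± 8.14 CPM in WT ventricles (log2 fold change 0.68 ± 0.13, edgeR adjusted p = 0.00548). Tuba1a, an alpha-tubulin, averaged 254 ± 57.9 CPM in UtyGT and 167 ± 15.8 CPM in WT ventricles (0.60 ± 0.14, adjusted p = 0.0146). Both were called in all 27 alternatives, while their genotypes overlapped. The median over the 15 genes was -0.01, and Actb, the cytoplasmic beta-actin, had 626 ± 154 CPM in UtyGT and 794 ± 127 CPM in WT ventricles without a call (log2 fold change -0.34, edgeR adjusted p = 0.163). Actb was called lower in 3 alternatives, namely without UtyGT 6 (-0.49, adjusted p = 0.0113), without UtyGT 6 and WT 4 (-0.41, adjusted p = 0.0237) and with surrogate variables (-0.28, adjusted p = 0.0167). Without UtyGT 6 the list thus held 2 genes called higher and 2 called lower. Over all tested genes, that fit called 919 higher and 1329 lower, and the fit with surrogate variables 1251 higher and 1244 lower. Of 10 other clients tested, among them Gnb1, Hdac3 and Vhl, 0 were called, with a median of -0.12. At an unadjusted p below 0.05, these 3 genes had log2 fold changes of -0.21, -0.42 and 0.39. Hdac3 was called lower with GC content of the last 500 nt (-0.53, adjusted p = 0.0473) and with surrogate variables (-0.47, adjusted p = 0.0251), and 2 genes of this list were called lower without UtyGT 6.

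**Figure D5:**
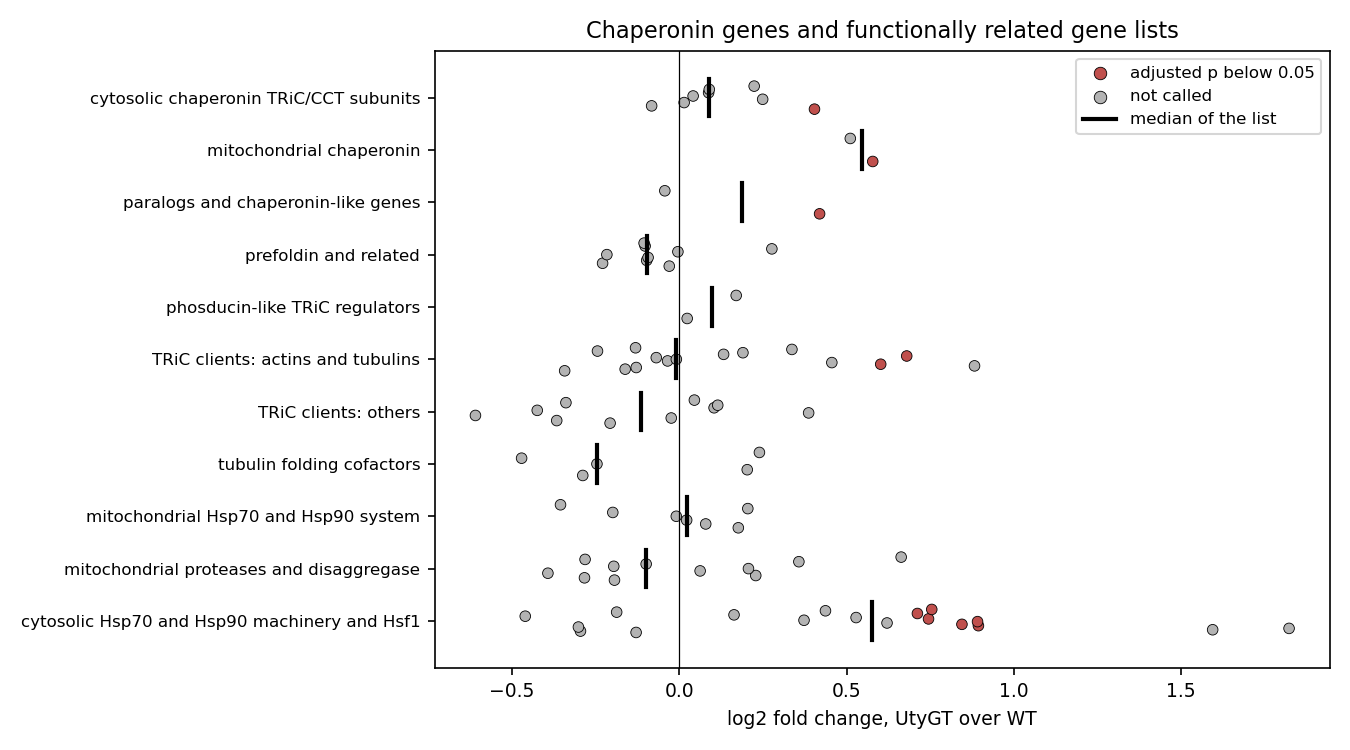
Log2 fold change (UtyGT over WT) of each tested gene in 11 gene lists, one list per row; red points were called, gray points were not, and the black bar is the median of the list. The median is 0.54 for the mitochondrial chaperonin and 0.57 for the cytosolic Hsp70 and Hsp90 machinery, and between -0.25 and 0.19 for the other lists.

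The other chaperones and proteases of mitochondria were looked at next. Of the 7 genes of the mitochondrial Hsp70 and Hsp90 system, 0 were called, with a median log2 fold change of 0.02. Trap1, the mitochondrial Hsp90, had the smallest p among them, with 75.5 ± 8.75 CPM in UtyGT and 96.5 ± 19.9 CPM in WT ventricles (log2 fold change -0.35 ± 0.13, edgeR adjusted p = 0.104). It was called lower without UtyGT 6 (-0.43, adjusted p = 0.0272) and with surrogate variables (-0.28, adjusted p = 0.0275), whereas with GC content of the last 500 nt its log2 fold change was -0.090 (adjusted p = 0.618). Of the 11 mitochondrial proteases and the disaggregase gene in 1 list, 0 were called and the median was -0.10, with values between -0.39 and 0.66. In that list Clpb, the disaggregase, had a log2 fold change of -0.39 (edgeR adjusted p = 0.166). Clpb was called lower without UtyGT 6 (-0.53, adjusted p = 0.0219), without UtyGT 6 and WT 4 (-0.45, adjusted p = 0.04995) and with surrogate variables (-0.28, adjusted p = 0.0295). Oma1, in the same list, had a log2 fold change of 0.36 (edgeR adjusted p = 0.182) and was called in 0 of 27 alternatives. Whether Hspd1 differed from these genes was not tested.

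The cytosolic Hsp70 and Hsp90 machinery, whose genes include well known targets of Hsf1, held more calls. Here 6 of 18 genes were called higher in UtyGT and 0 lower, against 4.7% and 3.34% of all tested genes. The median log2 fold change of the list was 0.57, with values between -0.46 and 1.82. Like the other lists, it was chosen with earlier results of these data known. Hspa4l, an Hsp110 nucleotide exchange factor, averaged 76.0 ± 11.9 CPM in UtyGT and 42.3 ± 3.10 CPM in WT ventricles (log2 fold change 0.84 ± 0.11, edgeR adjusted p = 0.000791). Hspa4, of the same family, averaged 302 ± 58.7 CPM in UtyGT and 163 ± 21.3 CPM in WT ventricles (0.89 ± 0.13, adjusted p = 0.00193). Chordc1, an Hsp90 co-chaperone, averaged 91.8 ± 11.9 CPM in UtyGT and 56.0 ± 8.44 CPM in WT ventricles (0.71 ± 0.12, adjusted p = 0.00331). For these 3 genes, as for Hspd1, all UtyGT libraries stood above all WT libraries, which held for 1.46% of all tested genes. Bag3, a nucleotide exchange factor for Hsp70, had a log2 fold change of 0.75 ± 0.15 (adjusted p = 0.00904), and the other genes called were Dnaja1 (0.75, adjusted p = 0.0112) and Hsp90aa1 (0.89, adjusted p = 0.0296), named after their values were seen. After GC correction 4 genes of the list were called higher, the calls of Dnaja1 and Hsp90aa1 being lost. Without UtyGT 6, 8 were called higher and 2 lower, and without UtyGT 6 and WT 4, 6 were called higher and 1 lower. Over all tested genes, the first of these fits called 919 higher and 1329 lower, and the second 796 higher and 834 lower. Of the 14 genes of this list with a promoter window, 2 held at least 3 heat shock units, Hsph1 and Chordc1, and Chordc1 held 4. For Hsph1 the log2 fold change was 0.62, without a call (edgeR adjusted p = 0.116).

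Markers of cell types were set beside the change of Hspd1. Of 8 cardiomyocyte markers, 1 was called higher (Ryr2) and 0 lower, and their summed level was 47779 to 79614 CPM in UtyGT and 44773 to 68511 CPM in WT libraries. Of 6 endothelial markers, 1 was called lower (Pecam1) and 0 higher, with 467 to 657 CPM in UtyGT and 607 to 901 CPM in WT libraries. Of 5 erythroid markers, 2 were called lower (Hba-a1 and Hba-a2) and 0 higher, with 1071 to 5117 CPM in UtyGT and 3192 to 6874 CPM in WT libraries. None of the tested atrial, fibroblast, pericyte and smooth muscle, myeloid, adipocyte or Schwann cell markers was called, and none of 5 lymphocyte markers had enough counts to be tested. None of the markers listed was at 0 in all libraries. The summed level of markers overlapped between genotypes in each of these lists. Log2 fold changes were all below 0 for endothelial (-0.66 to -0.07, median -0.33) and erythroid markers (-1.14 to -0.42, median -0.75). For pericyte and smooth muscle markers all were above 0 (0.01 to 0.88, median 0.44), as were the few Schwann cell and adipocyte markers tested. Cardiomyocyte, atrial, fibroblast and myeloid markers lay on both sides of 0. The part of these differences in the levels of Hspd1 and Tcp1 was not tested.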

How the data were processed

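RNA of 14 left ventricles, 7 UtyGT and 7 WT, was measured in QuantSeq 3′ FWD libraries, grouped by their labels. Per the study's methods, reads were aligned by the authors to GRCm38/mm10 with the Bluebee pipeline of Lexogen, and featureCounts 1.6.0 with Ensembl genes gave the deposited counts. Submitters' processing notes also name CASAVA 1.4, FastQC, STAR and DESeq2 1.22.2, without roles. Of the deposited rows, 5 name no gene and look like those of htseq-count, holding 45.9% to 49.1% of reads per library. These were left out of totals and tests, as were 4984 entries without counts. Deposited columns of the authors' comparison were not used: the baseMean, a signal of counts divided by size factors, the log2 fold changes with their errors, the test statistic, a score, and the p-values, raw and adjusted.

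The counts were tested in edgeR 4.0.16 under R 4.3.3 (filterByExpr with a minimum count of 10, TMM scaling, robust quasi-likelihood F test on genotype alone, Benjamini-Hochberg adjustment over 11563 genes, call at 0.05). The biological coefficient of variation was 26.2%. P-values set the difference between genotypes against the spread between mice within this single comparison. UtyGT and WT mice came from separate backcrosses, and any other difference between these lines cannot be told apart from the trap. Reads without molecular identifiers can be copies of 1 molecule. Genes were named by rule: all members, up to 4 genes with the smallest adjusted p per list and the 3 genes most like a member; Dnaja1, Hsp90aa1, Hsph1 and the called markers were added after their values were seen. Some results that the rule names are left out. The members, gene lists and motif were chosen with earlier results of these data known. Pseudogenes were found by name or by blastn (at least 90% identity over 200 nt). GC content came from GENCODE M21 (99.1% of genes matched) and promoters from RefSeq on GRCm38.p6. Coordinates are those of the deposited table. Alternatives were RLE scaling, library totals, unfiltered counts, a filter at 1 CPM in 7 libraries, counts thinned to 6322161, removal of the 10 most abundant and of mitochondrially encoded genes, limma voom (limma 3.58.1), DESeq2 1.42.0, 1 surrogate variable (sva 3.50.0), lowess GC corrections (span 0.3), joined copies, and leaving out each library or UtyGT 6 and WT 4 together. The fit was checked on simulated counts.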

Additional observations from a re-analysis of the deposited data

Results flagged for a closer look

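Within a genotype, 5 of 26 groups of 7 libraries, for 13 measures, had a highest or lowest library set apart from the others by a gap of more than Dixon's 95% critical value, which chance gives for about 1 group in 20. Of these, 3 concerned UtyGT 6: its Tcp1 level of 138 CPM was the highest of its genotype, its Cct5 level of 100.1 CPM the highest, and its Cct4 level of 81.2 CPM the lowest. The Cct3 level of WT 4, 134.7 CPM, was the highest of WT. The ratio of Hspd1 to summed TRiC in UtyGT 5, 0.22, was the lowest of UtyGT and still above every WT library.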

How the results depend on the processing

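Of all tested genes, 929 were called. This count was 612 with all genes of at least 1 count, 556 after GC correction, 1407 with DESeq2, 2495 with surrogate variables, 1630 without UtyGT 6 and WT 4 together, and 446 to 2248 when 1 library was left out, the highest without UtyGT 6 and the lowest without UtyGT 7. Of members, 2 were called, 1 with all genes of at least 1 count and after GC correction, and 1 to 3 when 1 library was left out. The cause of these shifts was not tested. The correlation of Hspd1 with Hspe1 was 0.32 to 0.68 in UtyGT and -0.54 to 0.32 in WT when 1 library was left out, and it turned positive in WT without WT 1 (0.32) or WT 3 (0.08). The log2 fold change of Cct3 was -0.084 after GC correction, and -0.082 to 0.074 when 1 library was left out. That of Cct6a was -0.054 with GC content of the last 500 nt, and that of Cct7 -0.040 after GC correction and -0.044 with GC content of the last 500 nt. That of Cct5 was -0.079 without UtyGT 6 and WT 4 together, and -0.13 to 0.081 when 1 library was left out. No paired analysis was possible because the column numbers of the deposited table are not matched to the animal numbers in the labels and pair no mice. Depth limits the paralogs Cct6b and Cct8l1, and p-values near 0.05, as for Tcp1, moved to either side with the setting.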
